A study of Cricetiscus sungorus with 216 samples.

Results

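Stra6, Aldh1a1, Crabp1, Crabp2, Rarres2, Gpr50, Vim and Nes, 8 genes known from tanycytes and from retinoic acid signalling, were followed through the hypothalamus of Djungarian hamsters over 32 weeks of short photoperiod. The genes were taken by symbol, and the isoforms listed under one symbol were added together. All 8 were in the tables of the mediobasal hypothalamus (MBH, 20156 genes) and the dorsomedial hypothalamus (DMH, 21821 genes), and 7 were in that of the paraventricular nucleus (PVN, 18960 genes), which listed no Aldh1a1. The hamsters were adult males of one colony with no genetic change or drug, 3 to 8 months old and raised in a long photoperiod (LP, 16 h of light; LD in the sample labels). One group stayed in LP and 8 groups were moved to a short photoperiod (SP, 8 h of light; SD in the labels) for 4, 8, 12, 16, 20, 24, 28 or 32 weeks. Each group held 6 hamsters, and the 54 hamsters each gave 1 nanopore cDNA library of polyA RNA per tissue. Tissue was punched at 1 mm from 200 µm brain sections, so a library mixes all cells of a punch, and fewer cells of a type and less RNA per cell cannot be told apart in it. There was 1 LP group for all 8 SP weeks, and the weekly comparisons below therefore share the same 6 LP libraries.

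Tanycytes are radial glia that line the floor and lower walls of the third ventricle, with processes that reach the arcuate nucleus and the median eminence. They carry the intermediate filaments vimentin and nestin. In seasonal mammals they respond to thyrotropin released by the neighbouring pars tuberalis, which reads day length from melatonin, and they set the local supply of thyroid hormone and retinoic acid. Retinol circulates on a binding protein, enters cells through STRA6, is oxidised to retinal and then by retinaldehyde dehydrogenases to retinoic acid, and the acid is carried in the cytosol by the CRABP proteins and acts through nuclear receptors that pair RAR with RXR.

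MBH libraries held between 5996 and 13208361 counts (median 1422834), DMH libraries between 149289 and 9084072, and PVN libraries between 159 and 998245. In the DMH 20 of 54 libraries had counts in fewer than 5000 genes, and the LP and SP medians were 11202.5 and 7921 genes, against 11817 and 12034 in the MBH. One gene model, Gm32262, took 17.2% to 65.7% of the counts of LP libraries of the MBH (median 48.9%) and 8.33% to 61.1% of those of SP libraries (median 26.2%). The MBH library of the second hamster at 20 weeks SP held 5996 counts, and all of the 8 genes but Crabp1 were at 0 in it. A library at 24 weeks held 71577. The tissue labels were checked against marker genes in the same hamsters. Of 5 arcuate peptide genes in both tables, 5 were higher in the MBH, led by Npy and Agrp, whereas of 6 genes of the dorsomedial and lateral hypothalamus only Hcrt and Pmch were higher in the DMH and Npvf, Ppp1r17 and Trh were higher in the MBH.

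The 8 genes differed widely in how much was read. Over the 54 MBH libraries the totals were 8230 counts for Vim, 5502 for Aldh1a1, 3153 for Crabp1, 1321 for Gpr50 and 1171 for Rarres2, but 184 for Stra6, 132 for Crabp2 and 115 for Nes. The last 3 averaged 3.41, 2.44 and 2.13 counts per library. In several genes the isoforms carried the same value: the 5 isoforms of Aldh1a1 were equal in 49 of the 52 libraries where it was read, the 4 of Rarres2 in 35 of 50 and the 11 of Stra6 in 9 of 17, so the summed counts of these genes may exceed their reads. Vim and Crabp2 had 1 isoform each. Levels below are CPM, the counts relative to the scaled library total (TMM scaling), and they are compared between groups of one gene and never between genes.

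Vim, Gpr50 and Nes fell in the MBH in SP. Over all 48 SP libraries against the 6 LP libraries, the intermediate filament genes Vim and Nes changed by −1.28 (SE 0.25) and −2.07 (SE 0.58) on the log2 scale and Gpr50, an orphan receptor of the melatonin receptor family, by −1.78 (SE 0.43). The adjusted p-values (edgeR quasi-likelihood test, Benjamini-Hochberg over all 20156 genes, threshold 0.1) were 0.0038, 0.0951 and 0.0351. These 3 of 8 genes stood against 0.794% of all genes called lower (0.814% in either direction). The other 5 did not pass: Stra6 had −2.32 (SE 0.75, adjusted p = 0.246), Aldh1a1 −1.11 (SE 0.34, adjusted p = 0.156), Crabp1 −0.63 (SE 0.39, adjusted p = 0.837), Crabp2 −0.60 (SE 0.56, adjusted p = 1) and Rarres2 −0.16 (SE 0.40, adjusted p = 1). The median of the 8 fitted changes was −1.19, against 0.00 over all genes. Without TMM scaling none of the 3 calls held (Vim −1.13, adjusted p = 0.254), and with DESeq2 only that of Vim held.

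**Figure D1:**
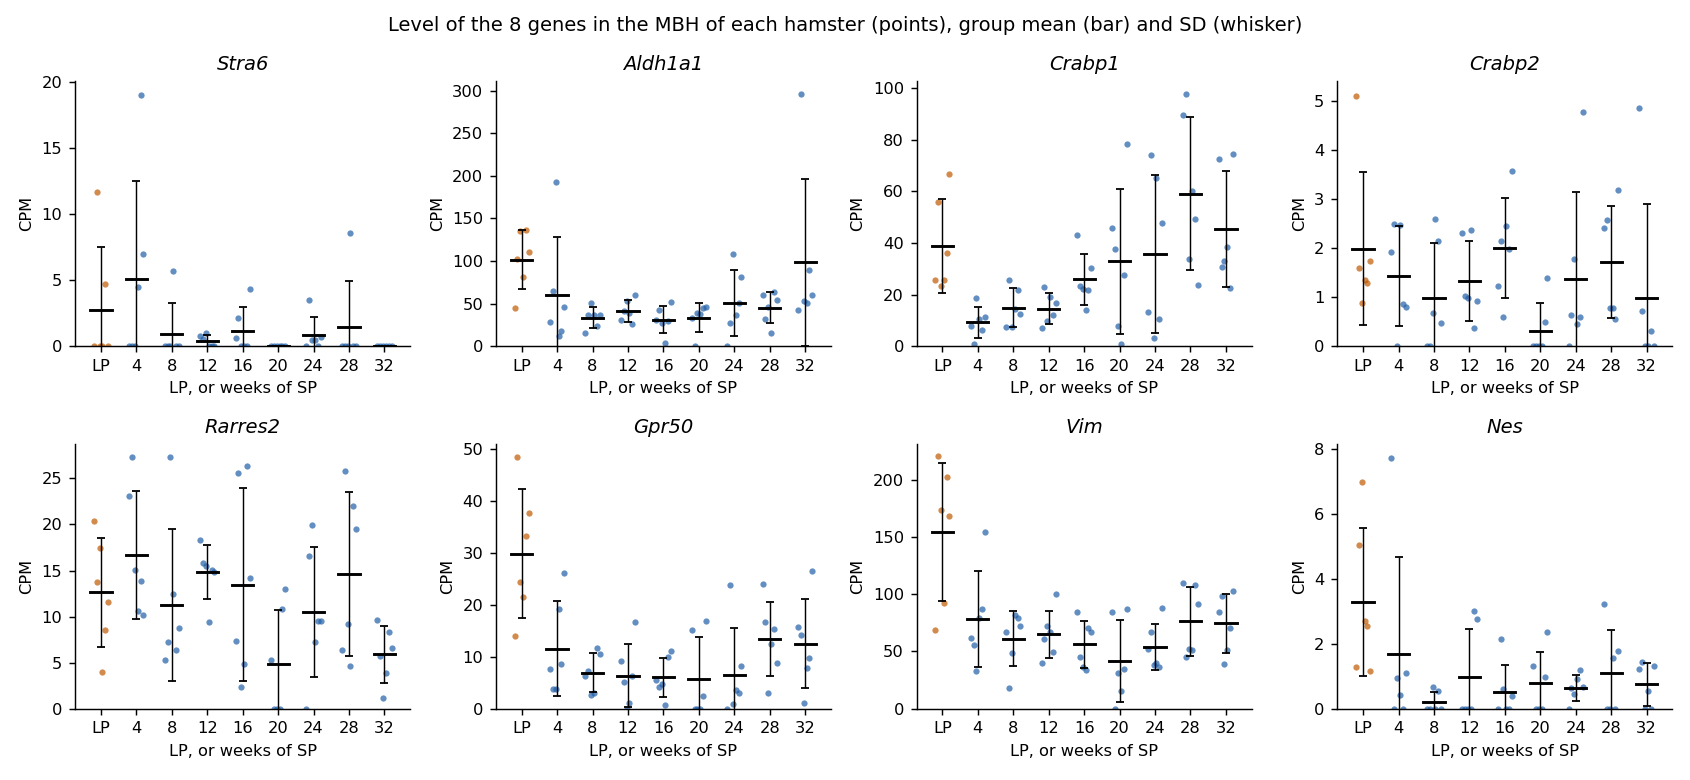
CPM of each of the 8 genes in the MBH (y axis, 1 panel per gene) in LP and at 4 to 32 weeks of SP (x axis); points are single hamsters, 6 per group, and the line and whiskers are the group mean and standard deviation, cut where they would pass below 0. All 48 SP libraries lie below the LP median for Vim and for Gpr50, while Crabp1 is lowest at 4 weeks (mean 9.22) and highest at 28 weeks (mean 59.1).

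Stra6, the membrane receptor that takes retinol into cells, was read in only 17 of 54 MBH libraries. LP hamsters ranged from 0 to 11.7 CPM with a median of 0, and 2 of the 6 had any count. At 4 weeks SP the range was 0 to 19.04 CPM (median 2.25, 3 of 6 read), and from 8 to 28 weeks the highest library of a week was 8.58 CPM. No count was found at 20 or at 32 weeks. No upper limit is given for these weeks, since 1 read may be counted on all 11 isoforms. The groups overlapped in every week, and no week differed from LP (exact permutation test of group means, two-sided, lowest p = 0.455 with n = 6 per group). The fitted change over all SP weeks given above passed only when the fourth hamster of each group was left out (−3.49, adjusted p = 0.0404, edgeR) and was −1.11 without the second.

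Aldh1a1, the enzyme that makes retinoic acid from retinal, was lower in the weeks from 8 to 28. The 6 LP hamsters lay between 44.6 and 136 CPM, with a median of 106 and a mean of 101 ± 34.9 (SD). At 8 weeks SP the range was 15.8 to 51.1 CPM (median 36.3) and at 16 weeks 4.09 to 51.4 CPM (median 30.1). In both weeks 5 of 6 SP hamsters lay below every LP hamster, and 1 LP hamster lay inside the SP range. The exact permutation test gave p = 0.00433 at 8, 16 and 20 weeks and 0.00649 at 12 weeks (n = 6 per group). At 24 and 28 weeks the exact test gave p = 0.0455 and 0.0108. Without the library of 71577 counts the exact p at 24 weeks was 0.0887. At 4 weeks (mean 60.5 ± 67.8) and 32 weeks (mean 98.7 ± 98.1) it gave 0.212 and 0.978, and each of these weeks held 1 hamster far above the other 5, at 193 and 296 CPM. The median at 32 weeks was 56.8 CPM. Over all SP hamsters the mean was 49.3 ± 47.4 CPM (exact permutation test of 6 LP against 48 SP, p = 0.0237), and the LP mean was 2.06 times that value.

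Crabp1, which binds retinoic acid in the cytosol, was low early in SP, and its later weeks spread widely and did not differ from LP. LP hamsters had 23.5 to 66.6 CPM (median 30.9, mean 38.8 ± 18.2). At 4 weeks SP they had 0.621 to 18.8 CPM (median 9.17) and at 12 weeks 6.89 to 22.97 CPM (median 14.3), and neither week overlapped with LP (exact permutation test, p = 0.00216 in both, the smallest that 6 against 6 allow). At 8 weeks the highest hamster reached 25.5 CPM, inside the LP range (median 13.5, p = 0.00866 by the same exact test). From 16 weeks on no week differed from LP, with a mean of 25.8 ± 10.03 CPM at 16 weeks and means between 32.9 ± 28.0 (20 weeks) and 59.1 ± 29.8 (28 weeks) after it (exact permutation p between 0.177 and 0.823, n = 6). The spread between hamsters was wide in these weeks: at 24 weeks single hamsters lay anywhere from 3.10 to 74.1 CPM, and at 20 weeks 1 value, 37.5 CPM, rested on 1 count. The average over all SP weeks, 29.7 ± 24.8 CPM, did not differ from LP (exact permutation p = 0.394, 6 against 48). Of the 48 SP hamsters 27 lay below every LP hamster, some of them in the later weeks.

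Crabp2, the second binding protein, which passes retinoic acid to its nuclear receptors, was near the limit of reading. LP hamsters had 0.870 to 5.10 CPM (median 1.47) on 18 counts in all, and the SP means ran from 0.312 to 1.99 CPM. Only 20 weeks differed from LP (0 to 1.38 CPM, median 0, exact permutation p = 0.00866, n = 6), a week with 8 counts over its 6 libraries.

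Rarres2 encodes chemerin, a secreted attractant that retinoids induce in many cells. LP hamsters had 4.03 to 20.4 CPM (median 12.7, mean 12.6 ± 5.93), and over all SP weeks the mean was 11.5 ± 7.73 CPM (exact permutation p = 0.738, 6 against 48). The weekly means lay above LP in 4 weeks and below it in 4. Values were lower at 20 weeks (0 to 13.01 CPM, median 2.65, p = 0.0498) and at 32 weeks (1.18 to 9.68 CPM, median 6.13, p = 0.0346; exact permutation tests, n = 6), with overlap in both. Without the library of 5996 counts the exact p at 20 weeks was 0.0974.

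Gpr50, the melatonin-related receptor that tanycytes carry, was lower than in LP in every SP week. LP hamsters had 14.01 to 48.6 CPM (median 28.8, mean 29.9 ± 12.4), and all 48 SP hamsters lay below that median, 36 of them below every LP hamster. At 8 weeks the SP range was 2.73 to 11.7 CPM (median 6.81) and at 16 weeks 0.818 to 11.1 CPM (median 5.15), with no overlap with LP in either (exact permutation p = 0.00216). In the remaining weeks the ranges met those of LP, and the exact permutation p was between 0.00433 and 0.00649 at 12, 20 and 24 weeks and between 0.0152 and 0.0238 at 4, 28 and 32 weeks (n = 6). Weekly means ran from 11.6 ± 9.16 CPM at 4 weeks to 5.77 ± 8.06 at 20 weeks and were 13.4 ± 7.16 and 12.6 ± 8.57 at 28 and 32 weeks. The LP mean was 3.45 times the SP mean of 8.67 ± 7.34 CPM (exact permutation p = 1.06e-05, 6 against 48).

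Vim, the main intermediate filament gene of tanycytes and other glia, was likewise lower in each SP week. LP hamsters had 68.8 to 220.2 CPM (median 171, mean 154 ± 60.5). The weekly SP medians lay between 33.1 CPM at 20 weeks and 77.5 CPM at 32 weeks, and the highest SP hamster of all, at 4 weeks, had 154 CPM. All 48 SP hamsters were below the LP median and 28 below every LP hamster, but each week overlapped with LP, whose lowest hamster had 68.8 CPM. The exact permutation p ran from 0.00433 at 24 weeks to 0.026 at 4 and 32 weeks (n = 6). Over all SP hamsters the mean was 63.4 ± 28.8 CPM, and the LP mean was 2.43 times as high (exact permutation p = 1.50e-05, 6 against 48).

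Nes, the intermediate filament gene of neural progenitors and tanycytes, rested on 115 counts summed over 2 isoforms. In 15 of the 32 libraries where it was read both isoforms carried the same value, so its reads may be fewer. LP hamsters had 1.16 to 6.96 CPM (median 2.62, 38 counts), and each of the 6 had at least 1 count. At 8 weeks SP 2 counts were left, the range was 0 to 0.682 CPM, and the groups did not overlap (exact permutation p = 0.00216, n = 6). The weeks 16, 20, 24 and 32 also differed from LP (exact permutation p from 0.00433 to 0.0195), whereas 4, 12 and 28 weeks did not (p from 0.0584 to 0.294). In data simulated from these libraries, 41 of 19956 unchanged genes were called, of which 1 had a mean of at least 5 counts, and Nes lies below that mean. Its call was lost in most of the other ways of processing.

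Counted over genes and weeks, 33 of the 64 pairs gave an exact permutation p below 0.05, all of them lower in SP: 8 each for Gpr50 and Vim, 6 for Aldh1a1, 5 for Nes, 3 for Crabp1, 2 for Rarres2, 1 for Crabp2 and 0 for Stra6. Over all MBH genes 1.6% of such pairs did so, and 2.47% over genes with a mean of at least 1 CPM. No overlap with LP was seen in 5 pairs (2 of Crabp1, 2 of Gpr50, 1 of Nes), against 0.0843% of pairs over all genes. The exact p-values are not adjusted for the number of tests. The pairs of one gene share the LP libraries and are not independent. Without the 2 libraries under 100000 counts 31 of the 64 pairs were below 0.05, and without TMM scaling 22 were, 21 of them lower. When each week was instead fitted across all genes, 0 of 64 pairs passed an adjusted p of 0.1 with edgeR or with DESeq2 (28 had an unadjusted p below 0.05 with edgeR), and 0.0093% of all pairs did. The lowest weekly values of the 5 genes with the most summed counts were −2.26 (SE 0.70) for Gpr50 at 16 weeks, −2.08 (SE 0.58) for Crabp1 at 4 weeks, −1.72 (SE 0.51) for Aldh1a1 at 16 weeks, −1.65 (SE 0.39) for Vim at 20 weeks and −1.07 (SE 0.55) for Rarres2 at 32 weeks.

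**Figure D2:**
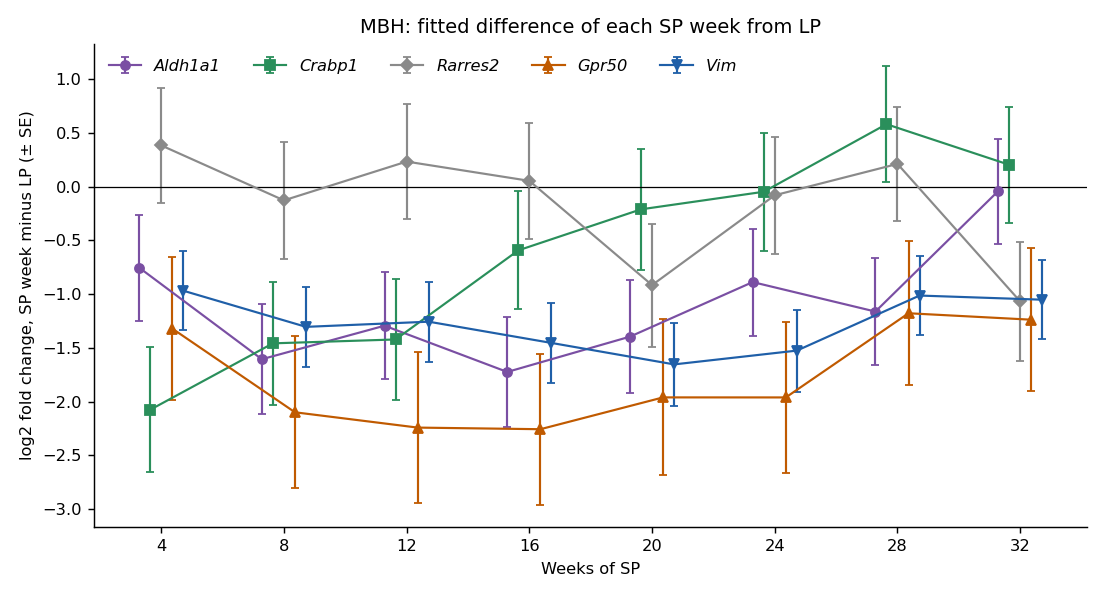
Fitted log2 change of each SP week against LP in the MBH (y axis) by weeks of SP (x axis). Aldh1a1, Crabp1, Rarres2, Gpr50 and Vim are drawn on shared axes, with bars of 1 standard error from the edgeR fit. The line at 0 marks the LP level. Crabp1 runs from −2.08 at 4 weeks to values between −0.21 and 0.58 from 20 weeks on, while Vim and Gpr50 stay below 0 in every week.

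The course over the 32 weeks was asked of 2 further fits. In a test for any difference among the 9 groups, Crabp1 was the only one of the 8 genes that passed (adjusted p = 0.0809, edgeR), where 0.442% of all genes did; Vim had 0.142 and Aldh1a1 0.23. The call of Crabp1 was lost in 9 of 15 alternatives, among them leaving out any 1 replicate number but the third (adjusted p from 0.193 to 0.478). A cosine curve with a period of 32 weeks, with LP set at week 0, was passed by 4 of the 8 against 1.71% of all genes. They were Crabp1 (adjusted p = 0.00639), Aldh1a1 (0.0352), Vim (0.0626) and Gpr50 (0.0769). Leaving out 1 replicate number gave 1 to 3 genes and never 4. Crabp1 passed in all 15 alternatives, while Aldh1a1 lost its call in 4, Gpr50 in 8 and Vim in 9. The trough of the fitted curve fell at 9.70 weeks for Crabp1, 15.4 weeks for Aldh1a1, 15.3 weeks for Gpr50 and 17.4 weeks for Vim, and the fitted curve ran from trough to peak over 2.12, 1.38, 1.71 and 1.01 log2 units. The curve treats 32 weeks of SP as equal to LP, and Vim and Gpr50 at 32 weeks still stood below LP as given above. Weeks 28 and 32 were also set directly against weeks 12 and 16. None of the 8 passed with edgeR or DESeq2 (3 had an unadjusted edgeR p below 0.05, and 0.00992% of all genes passed): Crabp1 was 1.40 (SE 0.39) higher in the later weeks with an adjusted p of 0.39, Gpr50 1.04 (SE 0.49) and Aldh1a1 0.91 (SE 0.35) higher with adjusted p of 1 and 0.857, and Vim 0.32 (SE 0.26) higher.

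Among marker genes of other cell types in an MBH punch, some of those of the pars tuberalis and pituitary fell beside these values. The summed CPM of 6 genes of the pars tuberalis and pituitary was 580.3 to 2200.3 in LP (median 1364) and 3.46 to 1504 in SP (median 81.2), and 3 of the 6 fell, against 0.794% of all genes: Tshb by 6.84 (SE 0.46), Cga by 3.14 (SE 0.52) and Lhb by 2.77 on the log2 scale. Summed markers of ciliated ependymal cells were 57.3 to 205.4 CPM in LP (median 118) and 0 to 177 CPM in SP (median 92.1), those of astrocytes 833 to 1517 (median 1019) and 75.0 to 1685 (median 972), and those of fibroblasts and meninges 19.9 to 79.1 (median 37.9) and 0 to 113.2 (median 22.2). None of the single markers of these 3 cell types passed the test, nor did any of endothelial cells, choroid plexus, microglia, oligodendrocytes or neurons. Fewer cells of a type and less RNA per cell cannot be told apart in these sums. The part of the pars tuberalis in a punch, and its part in the lower Vim, Gpr50 and Nes, was not tested.

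**Figure D3:**
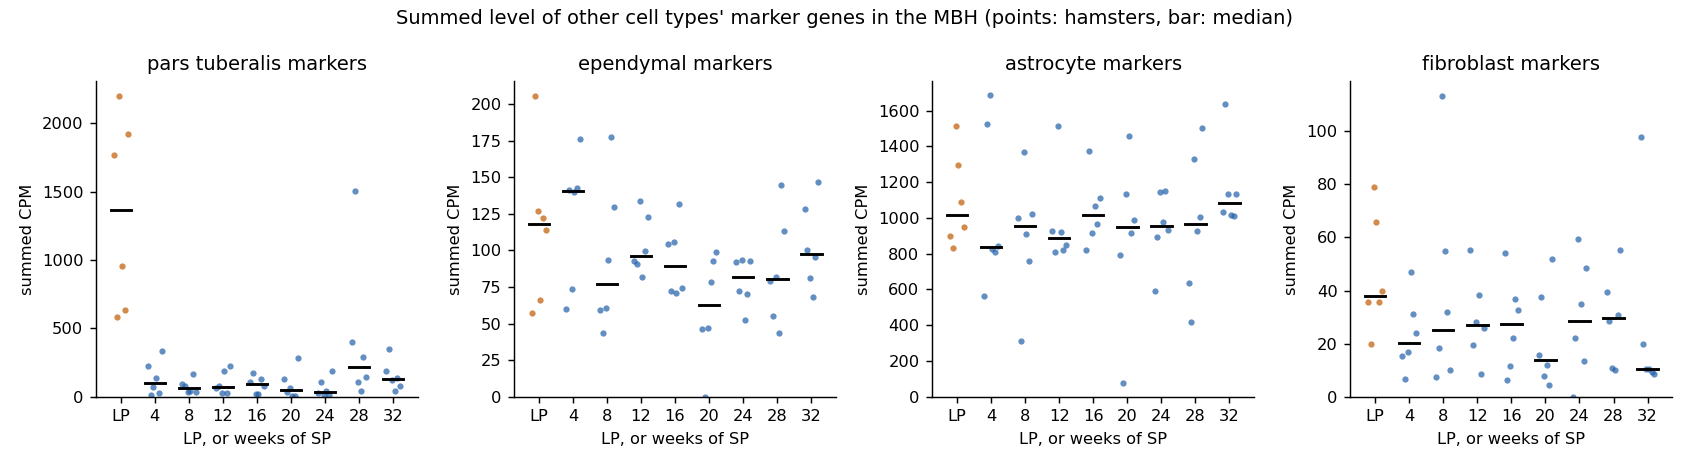
Summed CPM of marker genes of the pars tuberalis, ependymal cells, astrocytes and fibroblasts in the MBH (y axis) in LP and at each SP week (x axis); points are single hamsters and bars the group median. The pars tuberalis sum has a median of 1364 in LP and 81.2 over all SP hamsters, while the astrocyte sum has medians of 1019 and 972.

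The other genes of the retinoid pathway were taken from a list of 25 genes, of which 21 were in the MBH table. In SP 2 of the 21 were called lower, against 0.794% of all genes, and none was called higher. Both of the called genes handle retinol upstream of the acid. Rbp4, the carrier of retinol in plasma, had 35.7 to 48.6 CPM in LP and a mean of 16.7 ± 11.8 CPM in SP (−1.30, SE 0.29, adjusted p = 0.0192, edgeR). Lrat, which esterifies retinol for storage, was read at 3.49 ± 2.81 and 1.14 ± 1.14 CPM (−1.68, SE 0.45, adjusted p = 0.0694). The genes for breakdown by CYP26 enzymes and for the RAR and RXR receptors did not pass, and the median change over the 21 was −0.37. The list was chosen with results of these data known.

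**Figure D4:**
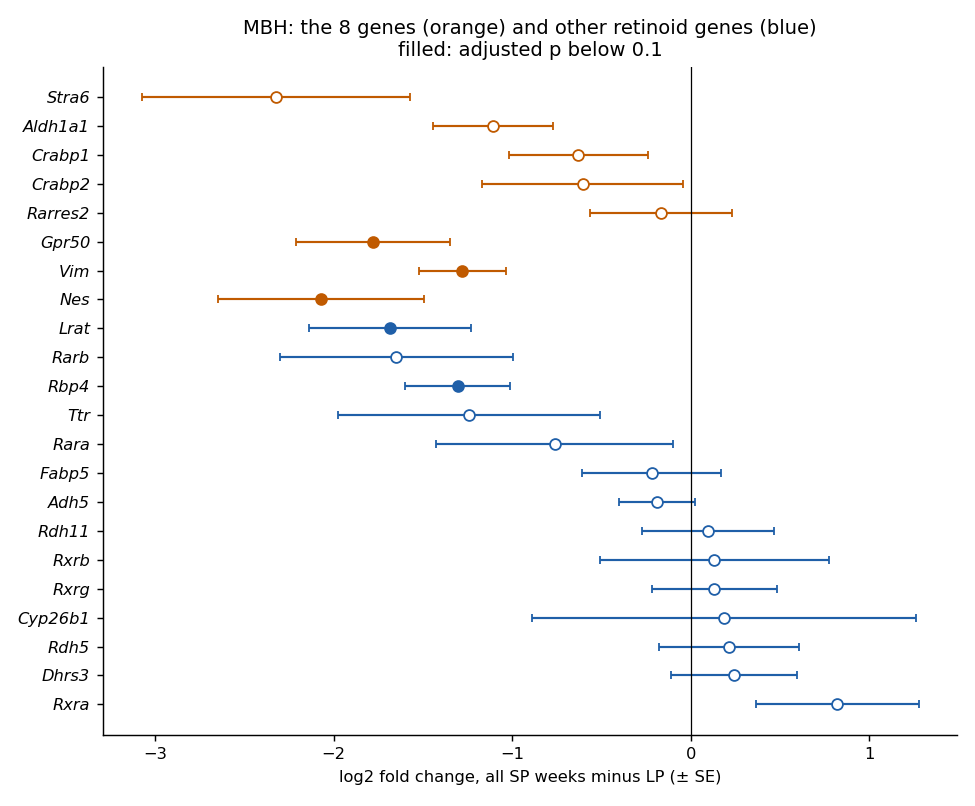
Fitted log2 change over all SP weeks against LP in the MBH (x axis, bars 1 standard error, edgeR) for the 8 genes and the 14 other retinoid pathway genes with at least 100 counts (y axis); filled points have an adjusted p below 0.1. The filled points are Vim, Gpr50, Nes, Rbp4 and Lrat, all below 0.

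None of the other genes known from tanycytes passed the test over all SP weeks. Of 18 in the MBH table (of 19 listed) 0 passed with edgeR (1 had an unadjusted p below 0.05), and their median change was −0.15. The smallest p-values were those of Ppp1r1b, a phosphatase inhibitor, with −0.78 (adjusted p = 0.469), and of the channel gene Scn7a with −0.99 (adjusted p = 0.819). Dio3, which inactivates thyroid hormone, passed the test over the 9 groups (adjusted p = 0.0344): it was not read in any LP library and had 38 counts over 13 SP libraries. Of the chemerin and melatonin receptor genes, the chemerin-binding Ccrl2 fell by 2.42 (SE 0.55, adjusted p = 0.0554) on 11 counts over all libraries, and the melatonin receptor Mtnr1a had −1.81 (SE 0.55, adjusted p = 0.29) on 9 counts. Of 11 other genes of intermediate filaments and their partners 0 passed (none had an unadjusted p below 0.05), with Gfap, the astrocyte filament, at −0.72 (adjusted p = 0.885) and a median of −0.13.

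In the DMH the same genes were sparse. Only Aldh1a1 (3187 counts), Vim (451) and Rarres2 were read in more than 20 libraries. Crabp1 had 35 counts, Nes 17, Gpr50 12, Crabp2 5 and Stra6 2. Stra6 had 1 isoform in the DMH, against 11 in the MBH. None of the 8 passed over all SP weeks with edgeR or DESeq2 (2 had an unadjusted edgeR p below 0.05), while 3.91% of all genes did, nearly all lower. None passed over the 9 groups (4.62% of all genes) or in the cosine fit (3.07%). Aldh1a1 had 0 to 26.1 CPM in LP (median 16.5, mean 13.7 ± 12.0) and 0 to 41.2 CPM in SP (median 9.93), a change of −0.58 (SE 0.68, adjusted p = 0.889). Vim had 0 to 3.77 CPM in LP and 0 to 7.36 in SP (−0.48, SE 0.52), and Rarres2 0 to 3.15 and 0 to 7.67 CPM (−0.65, SE 0.60). The ranges of all 3 overlapped. All DMH genes together had a median change of −0.28. Of the 64 pairs of gene and week 2 gave an exact permutation p below 0.05, both for Vim (0.0325 at 20 weeks and 0.0195 at 28 weeks, n = 6), against 1.89% of pairs over all genes. In data simulated from the DMH libraries, the test over all SP weeks gave 260 false calls and 46 true ones. Of the retinoid list Cyp26b1, which breaks down retinoic acid, fell, as did the receptor gene Rara by 3.32 (SE 0.72). Of the tanycyte list Lhx2, Tgfb2 and Slco1c1 fell, by 3.49, 1.66 and 1.76. The number of genes read per library moved with the SP weeks in the DMH, with a median of 3702.5 genes at 20 weeks and 4579.5 at 32 weeks, and its part in these values was not tested.

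The same hamsters allowed the MBH to be set against the DMH for the 17693 genes whose isoforms both tables share, with the hamster as a block. Crabp1, Gpr50, Vim, Crabp2 and Nes were higher in the MBH, and Aldh1a1, Rarres2 and Stra6 did not pass. For Stra6 only 1 of its 11 MBH isoforms was shared, with 24 counts in the MBH and 2 in the DMH. The 5 of 8 stood against 39.7% of all genes called higher (42.2% in either direction), and the median over all genes was 0.58 on the log2 scale. Gpr50 was 4.97 (SE 0.34) higher, Crabp1 4.89 (SE 0.31), Vim 3.07 (SE 0.24), Crabp2 2.73 (SE 0.38) and Nes 1.93 (SE 0.46), with adjusted p of 0.000716 for Nes and smaller for the others (edgeR). On the scale common to both tissues Crabp1 had a mean of 13.6 ± 10.99 CPM in the MBH and 0.295 ± 0.556 in the DMH and was higher in the MBH in 54 of 54 hamsters. Vim had 32.6 ± 19.6 and 3.58 ± 3.26 CPM and was higher in 53 hamsters, and Gpr50 had 4.91 ± 4.68 and 0.0708 ± 0.201 CPM and was higher in 49.

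Aldh1a1 had close levels in the 2 regions, 24.3 ± 21.7 CPM in the MBH and 27.3 ± 27.2 in the DMH (log2 difference 0.08, SE 0.35, adjusted p = 0.999). It was higher in the MBH in 22 hamsters and in the DMH in 31. Rarres2 had 5.14 ± 3.34 and 3.20 ± 4.44 CPM (0.78, SE 0.29, adjusted p = 0.137). Among the 34 hamsters whose DMH library had counts in at least 5000 genes, a limit chosen after the data were seen, Aldh1a1 had means of 24.0 CPM in the MBH and 39.1 in the DMH and was higher in the DMH in 28, and Rarres2 had 4.83 and 4.80 CPM. The fitted difference of Aldh1a1 in these 34 was −0.75 (SE 0.32, adjusted p = 0.109) and that of Rarres2 0.24 (SE 0.29, adjusted p = 0.689), and the 5 genes called higher in the MBH over all hamsters were called there too. Crabp1 and Vim were higher in the MBH in all 34 and Gpr50 in 33. Of the 20 other hamsters, 4 had any DMH count of Aldh1a1 and 4 any of Vim. A difference between the regions in the effect of SP passed for no gene (0 of 17693 with edgeR, 0.0%, and 704 at an unadjusted p below 0.05), with differences of −0.74 (SE 0.70) for Vim, −1.18 (SE 1.10) for Aldh1a1 and 0.61 (SE 0.83) for Rarres2.

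**Figure D5:**
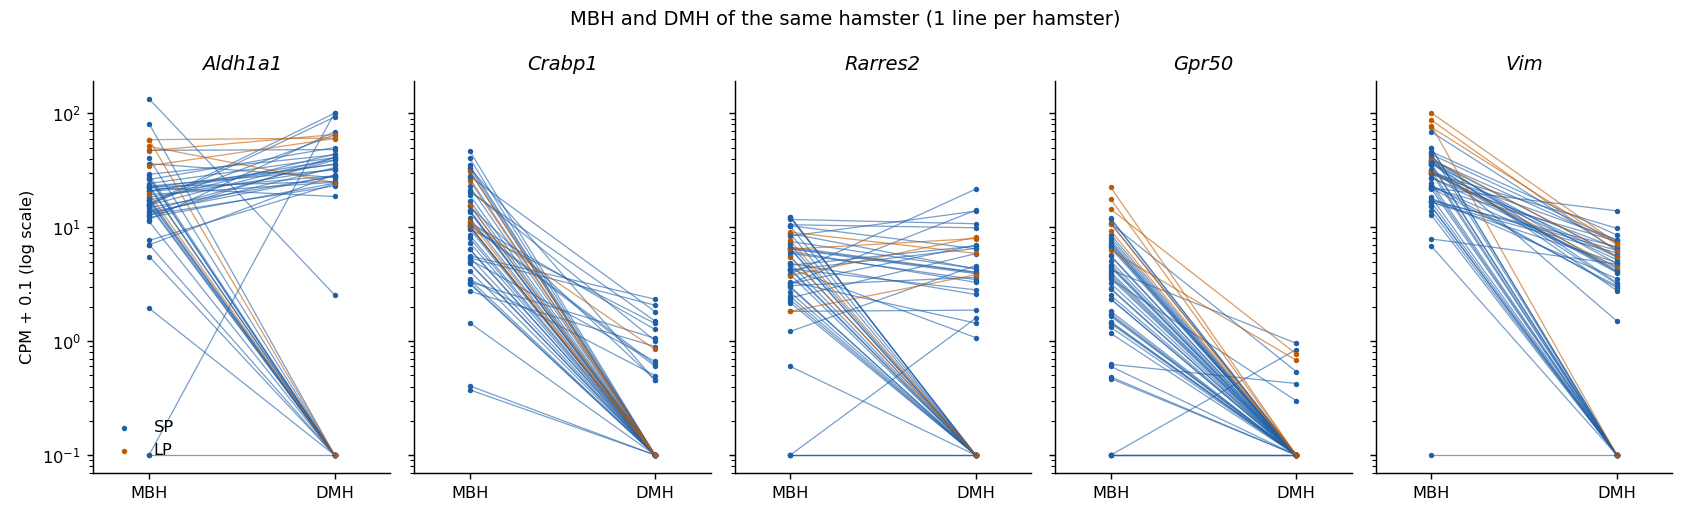
CPM plus 0.1 (y axis, log scale) of Aldh1a1, Crabp1, Rarres2, Gpr50 and Vim in the MBH and the DMH (x axis). Libraries of both tissues were scaled together, and each line joins the 2 libraries of 1 of the 54 hamsters. For Crabp1 all 54 lines fall from the MBH to the DMH, and for Aldh1a1 31 lines rise.

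The other lists were set against the same 39.7% of all genes. Of the tanycyte list 14 of 17 were higher in the MBH, among them Crym (4.31), Lhx2 (4.03) and Tshr (3.38), with a median of 1.497. Of the retinoid list 8 of 19 were higher, a share near that of all genes, led by Cyp26b1 (3.38), Lrat (3.34), Rxrg (3.15) and Rara (2.91), and Rbp4 was lower (−0.51). Gfap was 3.55 (SE 0.34) higher. Markers of fibroblasts were higher in 6 of 7 cases (median 2.25) and all 3 pars tuberalis genes in both tables were higher (Cga by 8.94), and those of oligodendrocytes were lower in 5 of 6 (median −1.24). The part of a different mix of cells in the 2 punches was not tested.

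In the PVN none of the 7 genes passed over all SP weeks with edgeR or DESeq2 (0 at an unadjusted edgeR p below 0.05, 0.0211% of all genes called) or over the 9 groups (0.0158%), and 0 of 56 pairs of gene and week had an exact permutation p below 0.05 (0.169% of pairs over all genes were lower). Vim had 0 to 82.6 CPM in LP (median 60.0) and 0 to 152.7 CPM in SP (median 59.6), Crabp1 0 to 41.3 (median 11.1) and 0 to 77.0 (median 15.6), and Rarres2 0 to 35.6 (median 19.1) and 0 to 147 (median 28.8). The fitted changes were 0.06 (SE 0.39), 0.11 (SE 0.50) and 0.48 (SE 0.49). One of the 6 LP libraries held 159 counts and none of the 7 genes, and in the other 5 the ranges were 44.2 to 82.6 CPM for Vim, 0 to 41.3 for Crabp1 and 11.2 to 35.6 for Rarres2. Without the 14 libraries under 100000 counts the changes were 0.10, 0.42 and 0.41 for Vim, Crabp1 and Rarres2 and did not pass. Stra6, Crabp2, Gpr50 and Nes had 7, 4, 8 and 13 counts there. The PVN table names its isoforms differently from the other tables, and its levels were not set against theirs.

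The likeness of the genes across MBH libraries varied. Over the 52 libraries with at least 100000 counts the Spearman correlation of CPM was 0.76 between Gpr50 and Vim, 0.54 between Crabp1 and Gpr50, 0.38 between Aldh1a1 and Vim and −0.17 between Crabp1 and Rarres2. Neighbours were sought among about 3435 genes with a mean of at least 20 CPM. The genes nearest to Gpr50 after Vim were Cga (0.71), the common subunit of pituitary glycoprotein hormones, and Maged2 (0.65). Those nearest to Vim outside the 8 were Cga (0.67), Cfap126 (0.64), which is among the ciliated ependymal markers used above, and Pltp (0.63). Crabp1 was nearest to the arcuate peptide genes Agrp (0.65) and Pomc (0.63) and to Ppp1r1b (0.62). The share of arcuate nucleus in a punch, and its part in the Crabp1 values, was not tested. Aldh1a1 was nearest to Ckb (0.66), Trf (0.65) and Paqr6 (0.61), and Rarres2 to Grpel1 (0.53), Nhp2 (0.49) and Apoo (0.49). The libraries share the 9 groups and their scaling, so these values describe likeness only.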

How the data were processed

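Nanopore cDNA libraries of polyA RNA from the MBH, DMH and PVN of 54 male hamsters were analysed, 162 of the 216 libraries in the series. The authors trimmed and filtered reads, mapped them with minimap2 to the mouse genome GRCm39 and quantified isoforms with Salmon. The deposited values are expected counts per isoform, which the authors did not normalise in these tables. They had also left out isoforms of low count with edgeR. The PVN table carries other isoform identifiers than the rest, and no source used here gives its annotation. Hamster reads that differ from the mouse sequence may be lost, and reads shared by isoforms may be split among them or counted on several of them.

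Isoform counts were summed per gene symbol and rounded. Every gene was fitted with edgeR 4.0.16 in R 4.3.3 (TMM scaling, quasi-likelihood F-test, 9 groups in 1 fit per tissue, Benjamini-Hochberg over all genes), and an adjusted p below 0.1, the threshold of the study, was called. The standard error is the absolute log2 change divided by the square root of F. MBH and DMH were fitted together with the hamster, given by the numbers in the labels, as a block; deviations from the group means correlated by 0.044 on average between the 2 libraries of a hamster, and over 0.1 in 19 of 54. A cosine with a period of 32 weeks stood in for the rhythm test of the study. Single genes were tested by exact permutation of group means (smallest p for 6 against 6, 0.00216), without adjustment for the number of tests. Depth limits precision most in the 2 MBH libraries under 100000 counts and in the PVN, where 14 libraries were under it. No library pair was identical. P-values measure the spread between libraries of different hamsters, and the main fits held no term for the replicate number. Same-numbered libraries were on average more alike than others, as given below for the MBH.

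In data simulated from the MBH libraries, 24% of genes changed 2-fold and 73% of those changed 4-fold were recovered over all SP weeks, with 41 false calls among 19956 unchanged genes. In the DMH 9% and 37% were recovered, with 46 true calls beside 260 false calls among 21621 unchanged genes, so most calls were false. Between MBH and DMH, run on 2000 genes, 61% and 100% were recovered. There were 161 true calls beside 66 false calls among 1800.

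The 8 genes and all lists were chosen with earlier results of these data known, and 2 genes of these lists are not reported here. Named were the 8 genes, and of each other list the genes called in the test over all SP weeks, over the 9 groups or between tissues (at most 8 per list and tissue by smallest p), or else the 2 with the smallest p over all SP weeks. For the 5 of the 8 genes with a median of at least 5 counts, the 3 genes with the highest Spearman correlation were named. Other scalings, filters, tools, isoform choices and libraries left out were tried. Pituitary libraries entered no comparison.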

Additional observations from a re-analysis of the deposited data

Results flagged for a closer look

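In 6 of 54 sets, each of 1 gene in 1 group of 6 hamsters, 1 library lay far from the other 5. The sets were Aldh1a1, Crabp1, Rarres2, Gpr50 and Vim in the MBH and Aldh1a1 in the DMH, over the same 9 groups. For independent, normally spread values chance alone does so in about 1 set in 20, but these sets share libraries. Aldh1a1 in the MBH was at 193 CPM in the third hamster at 4 weeks SP, where the next highest had 65.2 CPM. At 32 weeks the second hamster had 296 CPM of Aldh1a1, where the next had 89.5 CPM. At 20 weeks the second hamster had 0 CPM of Aldh1a1 in its library of 5996 counts, where the next lowest had 33.1 CPM. Rarres2 in the MBH was at 27.3 CPM in the third hamster at 8 weeks, and the next had 12.4 CPM. Gpr50 in the MBH was at 23.9 CPM in the second hamster at 24 weeks, and the next had 8.17 CPM. In the DMH the fourth hamster at 32 weeks had 14.4 CPM of Aldh1a1, and the next had 0.941 CPM.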

How the results depend on the processing

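Of 891 alternative values for 62 results 779 kept their direction and their side of the threshold. The number of the 8 genes called in the MBH moved most. Over all SP weeks it was 3, and 1 with DESeq2 or filterByExpr, 5 with the highest isoform of each gene, 0 without TMM and 1 to 3 without 1 replicate number; it was 1 without replicate 2 or 5. Over the 9 groups it was 1, and 0 with filterByExpr, without TMM or without the libraries under 100000 counts, 5 with the highest isoform and 0 to 1 without 1 replicate. In the cosine fit it was 4, and 2 with DESeq2 or edgeR 4, 1 with filterByExpr or without TMM and 1 to 3 without 1 replicate. With the highest isoform 3 of the 8 passed between late and middle weeks and 25 of 64 pairs of gene and week, against 0, although Vim, with 1 isoform, had the same counts there (SE 0.15 in place of 0.25); the cause was not tested. In the DMH 1 passed over the 9 groups without TMM. Between MBH and DMH it was 5, and 3 with filterByExpr and 8 without TMM, where the median of all genes was 2.43 in place of 0.58.

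Vim over all SP weeks lost its call only without TMM. Gpr50 lost it with DESeq2 (adjusted p = 0.708), with filterByExpr (0.112), without TMM (0.121) and without replicate 2 or 5. Directions turned for small values. Rarres2 in the MBH (−0.16) was 0.067 without TMM and −0.34 to 0.041 without 1 replicate, and its difference of mean CPM was 1.07 without TMM and −2.44 to 0.854 without 1 replicate. Stra6 over all SP weeks (−2.32) passed without replicate 4 (−3.49, adjusted p = 0.0404) and in no other alternative. The difference of mean CPM of Stra6 was −2.27 to 0.389 without 1 replicate. Aldh1a1 between MBH and DMH (0.08) was −0.15 with filterByExpr, −0.59 with the highest isoform, −0.10 without the gene of most counts in the total, −0.75 without DMH libraries under 5000 genes (chosen after the data were seen) and −0.17 to 0.19 without 1 replicate; with no replicate block for the hamster it was −0.31. Crabp1 in the PVN (0.11) was −0.022 with DESeq2 and −0.21 to 0.42 without 1 replicate, and Vim in the PVN −0.13 to 0.11. The difference in the effect of SP on Vim between regions was 0.042 without TMM.

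Replicate numbers of different groups belong to different hamsters. With the number as a replicate block, 1 pair of gene and week passed in the MBH, Crabp1 in the PVN was −0.071, and 14 in place of 164 genes passed over all SP weeks. Same-numbered MBH libraries correlated by 0.087 on average, against −0.011 for libraries of other numbers. Of 52 libraries 24 were closest to their own number. DESeq2 was not run on MBH and DMH together. The counts of all genes called ranged in the MBH from 7 to 164 over all SP weeks, from 4 upwards over the 9 groups (89 as reported, most without TMM) and from 7 to 349 in the cosine fit (345), in the DMH from 0 to 1323 (854), from 1 to 1943 (1008) and from 0 to 752 (670), and between MBH and DMH from 3450 to 14101 (7461). Stra6, Crabp2 and Nes rested on the fewest counts in the MBH.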

Other observations

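The 8 genes were also looked up in the pituitary libraries of the same hamsters, which entered no comparison. Vim was read in 33 of the 54 libraries, with 68 counts, and Aldh1a1 in 22, with a mean of 3.00 counts per library summed over its 5 isoforms. Stra6 had 48 counts in 7 libraries, summed over 11 isoforms, and the other 5 genes had at most 16 each.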
